A study of Mus musculus with 23 samples.

Results

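The transcriptome of cortical astrocytes from untreated control mice was described from 4 samples of the 23 in the series, taken by their group label alone. These mice, ConAstro, carried Aldh7a1 Flox/Flox alleles without the Slc1a3-CreER allele and ate the control diet. Each sample was the RNA of 1 male mouse at postnatal day 70, given 4-hydroxytamoxifen at postnatal days 3 and 4 and kept on the control diet from postnatal day 21. The floxed allele and the tamoxifen were shared by all 4 mice, so the baseline is that of floxed, tamoxifen-exposed mice and not of wild-type mice. Astrocytes were pulled from dissociated cortex with magnetic beads against ACSA-2, a surface epitope of the Na,K-ATPase subunit ATP1B2, and a bead-bound fraction can hold other cells and debris.

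Astrocytes are the glia that surround synapses and blood vessels. They clear glutamate and K+ released by neurons, turn glutamate into glutamine, store glycogen, make and lipidate apolipoproteins, and line vessels with endfeet rich in water channels. A purified astrocyte library is therefore usually read through transporter, metabolic and lipid genes, and through the genes of neurons, myelinating cells, immune cells and vessels that come along in the dissociated tissue.

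The 4 samples were alike in depth, with total counts between 74771451 and 84049525, and 14193 of the 24411 gene symbols in the table had a mean of at least 1 CPM (counts per 1000000 counted reads, scaled between samples by trimmed mean of M values, TMM). A further 4787 symbols had no count in any sample. The paper counts animals as n for RNA-seq, so each sample was taken as 1 mouse and 1 replicate. Pairwise correlations of log2 CPM across the 11937 genes with a mean of at least 5 CPM lay between 0.959 and 0.981, where genes are not independent replicates, and the 3 pairs that held replicate 3 were the 3 lowest. Replicate 3 stood above the other 3 samples by Dixon's 95% criterion, a gap that takes up most of the range, in 490 of those genes, against 68 to 96 genes for each other replicate. Of the 11937 genes, 2845 were highest in replicate 1, 2805 in replicate 2, 3492 in replicate 3 and 2795 in replicate 4, and 2676, 2234, 4428 and 2599 were lowest in replicates 1 to 4. The X-inactivation transcript Xist was at 0.230, 0.705, 0.483 and 0.560 CPM in replicates 1 to 4 and the Y-linked Ddx3y at 108, 104, 110.1 and 98.0 CPM, as in male tissue.

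The defining astrocyte genes were high in each sample. Slc1a3 (GLAST, a glutamate transporter; chr15:8634124-8710764, minus strand, GRCm38) was at 4860.0, 4333, 4011 and 4959.7 CPM in replicates 1 to 4, and Slc1a2 (GLT-1, the main glutamate transporter of the forebrain; chr2:102658659-102790784, plus strand) at 12741, 11401, 9689 and 12582 CPM. Aqp4, the water channel of the endfeet, was at 833, 713, 743 and 820.5 CPM. Gfap, the intermediate filament protein of astrocytes, was at 131, 101, 178 and 123 CPM, a mean of 133 ± 32.4 CPM (SD, n = 4). Per length (in TPM, which divides counts by exon length, scales each sample to 1000000 and so allows levels of different genes to be compared) the 4 genes stood in the order Slc1a2 (3677 ± 432 TPM), Slc1a3 (2214 ± 212 TPM), Aqp4 (519 ± 38.4 TPM) and Gfap (131 ± 32.9 TPM), and no neighbours in that order overlapped. Replicate 3 was the lowest sample for both transporters and the highest for Gfap. Of the 30 genes on the astrocyte list, each had a mean of at least 5 CPM, and none was below 131 TPM. Their median was 755 TPM, against 24.2 TPM over the 14096 genes ranked per length, and the median member lay above 99.2% of those genes.

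The lowest of the 30 per length was Gfap and the highest Glul, glutamine synthetase (9839 ± 609.8 TPM). The antigen used for the pull-down, Atp1b2, was at 2789, 2526, 2118 and 2671 CPM, lowest in replicate 3. None of the 30 astrocyte genes reached a 2-fold range between the samples, while 7.72% of all genes with a mean of at least 5 CPM did (921 of 11937). The widest astrocyte gene was Gfap, with an SD of 0.34 on the log2 scale, and the steadiest Ntsr2, a neurotensin receptor, with 0.06. Replicate 3 was the lowest sample for 24 of the 30 genes, a larger share than the 4428 of all 11937 genes. The summed astrocyte list was 58067, 54741, 49597 and 60389 CPM in replicates 1 to 4, so the lowest and the highest sample differed by 1.22-fold.

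Apoe (chr7:19696109-19699188, minus strand), the main apolipoprotein of the brain, held place 2 by mean CPM, at 10737, 10636, 13476 and 11971 CPM in replicates 1 to 4, and Slc1a2 came after it. The ranges of these 2 genes overlapped, and Apoe was above Slc1a2 only in replicate 3. Also among the first 10 were Glul (7853 ± 491 CPM), the matricellular protein gene Sparcl1, also known as hevin (6663 ± 529 CPM), and the fatty acid desaturase gene Scd2 (6196 ± 340.0 CPM). Slc1a3, Clu (clusterin, a secreted chaperone) and Cpe (carboxypeptidase E) were in the first 10 too, at 4541, 4367 and 4015 CPM. Of the 29 neighbouring pairs in the order of the 30 most counted genes, 26 had overlapping ranges, and only 7 kept the same order in all 4 samples.

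**Figure D1:**
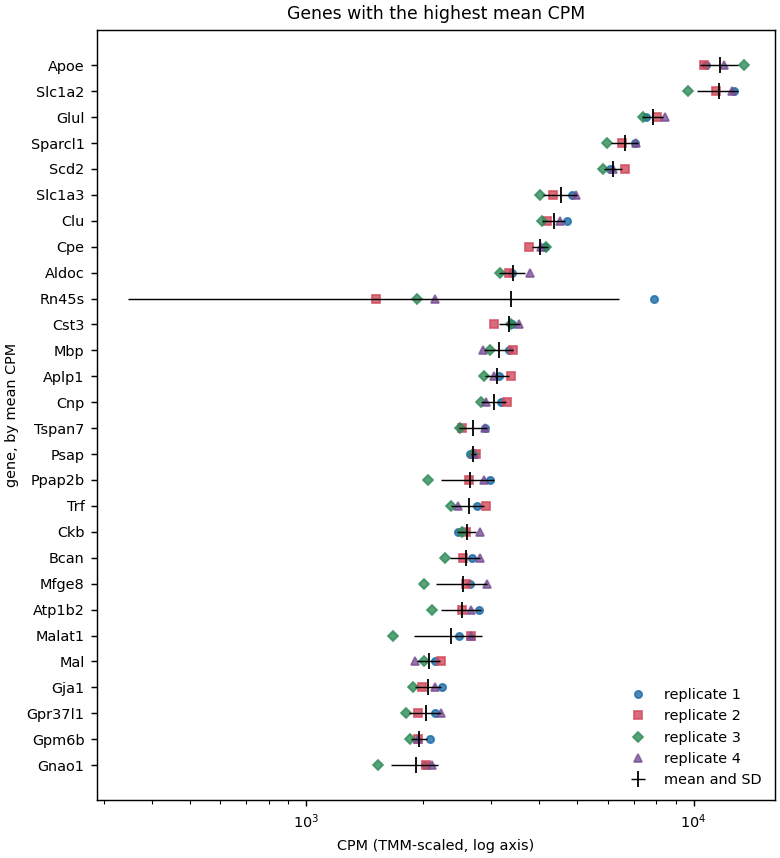
CPM of 28 of the 30 genes with the highest mean over the 4 ConAstro samples (x axis, log scale), 1 row per gene, with each replicate as a symbol and the mean ± SD as a bar. Most rows are tight, whereas Rn45s spans 1515 to 7897 CPM because of replicate 1.

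Of the 30 most counted genes, 8 were on the astrocyte list, among them Slc1a2, Glul, Slc1a3 and Aldoc (3415 ± 261 CPM), and 4 on the oligodendrocyte list, among them Mbp (3145 ± 266 CPM) and Cnp (3053 ± 227 CPM). The lipid and lipoprotein list held 4 (Apoe, Scd2, Clu and Ppap2b, a lipid phosphatase). The rest included Trf (transferrin, 2625 ± 259.5 CPM), Ckb (the brain creatine kinase, 2598 ± 152 CPM), Aplp1 (a relative of the amyloid precursor protein, 3115 ± 214 CPM), the tetraspanin gene Tspan7 (2699 ± 225 CPM), the proteolipid gene Gpm6b (1959 ± 93.7 CPM) and the G protein subunit gene Gnao1 (1925 ± 266 CPM). Psap, which encodes the precursor of the saposins of lysosomes, was the steadiest of the 30 with 2649, 2735, 2692 and 2719 CPM in replicates 1 to 4. The nuclear non-coding RNA Malat1 was at 2479, 2661, 1671 and 2668 CPM, lowest in replicate 3. Rn45s, the precursor of ribosomal RNA, which poly(A) selection is meant to remove, was at 7897, 1515, 1933 and 2150.3 CPM. It held place 12 by mean CPM, and its value in replicate 1 was 5.21 times that in replicate 2.

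The 10 genes with the highest mean held 8.14% of all counts, the first 100 genes 22.02%, and 961 genes were needed to reach 50 percent of the counts. In single samples the 100 most counted genes of that sample took between 21.1% (replicate 3) and 22.6% (replicate 1). Protein-coding genes took 98.7% of the counts and long intergenic non-coding RNAs 0.445%. The 84 genes of cytosolic ribosomal proteins together held between 0.671% and 0.823% of the counts of a sample, highest in replicate 3, and no gene of the mitochondrial genome is listed.

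Per length the order changed. Apoe led with 20790.0, 20611, 26468 and 23361 TPM in replicates 1 to 4, a mean of 22808 ± 2745 TPM (SD, n = 4) that did not overlap any other gene, and it was highest in replicate 3. Cst3, the gene of the secreted protease inhibitor cystatin C, held place 3 (11007 ± 718 TPM). Glul and Sparcl1 followed, at 9839 ± 609.8 and 9443 ± 715 TPM, and then Cpe at 6408 ± 319 TPM. The first 20 per length held 5 genes of the astrocyte list, 2 of the oligodendrocyte list and 1 of the choroid plexus list. Slc1a2, whose annotated exons sum to 13133 bases, moved from place 3 by counts to place 15 per length (3677 ± 432 TPM), while Cst3, with 1266 bases, moved from place 13 to place 3. Ttr, the thyroid hormone carrier transthyretin, held place 16 per length because of 1 sample. It was at 7.85, 14069, 22.6 and 22.7 TPM in replicates 1 to 4.

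All 15 genes of glutamate and GABA handling had a mean of at least 1 CPM, with a median level of 240.0 TPM, and none of the 14 with a mean of at least 5 CPM reached a 2-fold range. Uptake was represented by both glutamate transporters, by the GABA transporter gene Slc6a11 (1265 ± 58.6 TPM) and by the glycine transporter Slc6a9 (240.0 ± 16.7 TPM). The glutamine exporter Slc38a3 was at 548 ± 52.8 TPM, whereas Slc38a5, another glutamine transporter, was at 8.90 ± 4.37 TPM and was highest in replicate 4 (2.60, 3.53, 5.07 and 7.93 CPM in replicates 1 to 4). Slc7a11, the cystine-glutamate exchanger, was at 116 ± 15.3 TPM.

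The 21 genes of ion and water handling had a median of 398 TPM. Of the beta subunits of the Na,K-ATPase, Atp1b2 was at 2573 ± 285 TPM, Atp1b3 at 469.8 ± 58.4 TPM and Atp1b1 at 351 ± 37.5 TPM. The inward rectifier K+ channel Kcnj10 (Kir4.1) was at 930.4, 979, 866 and 974 CPM in replicates 1 to 4, the gap junction gene Gja1 (connexin 43) at 2247, 1989, 1891 and 2146 CPM, and the membrane protein gene Mlc1 at 1106, 987, 1097 and 1093 CPM. For each of these 3 the highest sample was at most 1.19 times the lowest. The 2 genes of the 21 that reached a 2-fold range were Trpv4, a cation channel, at 5.70, 26.7, 9.73 and 8.09 CPM and high in replicate 2, and Fxyd6, a regulator of the pump, at 20.8, 10.3, 52.7 and 10.4 CPM and high in replicate 3.

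The 22 genes of the lipid and lipoprotein list summed to 31951, 31330.0, 32163 and 32973 CPM in replicates 1 to 4, a range of 1.05-fold, and their median was 338 TPM. Apoe, highest in replicate 3, made up 41.9% of the sum there and 33.6% to 36.3% in the others, and without it the sums were 21214, 20694, 18687 and 21003 CPM. Of the 21 genes with a mean of at least 5 CPM, 16 were lowest in replicate 3, against 4428 of all 11937 genes. Besides Apoe, Clu and Scd2, the long-chain acyl-CoA synthetase gene Acsl3 was at 904 ± 30.4 TPM, and the sterol synthesis genes Hmgcs1, Sqle, Cyp51 and Dhcr7 lay between 112 and 465 TPM. The fatty acid desaturase genes Fads1 and Fads2 were the steadiest of the list, with SDs of 0.02 and 0.03 on the log2 scale. Lpl, lipoprotein lipase, was the lowest of the list at 0.992 ± 0.168 TPM. Fabp7, a fatty acid binding protein of radial glia and some adult astrocytes, was the 1 gene with a 2-fold range, at 93.7, 88.0, 473 and 110.1 CPM in replicates 1 to 4. Replicate 3 was the high sample, and the other 3 lay close together.

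Of the 21 genes of glucose, glycogen and lactate handling, 20 had a mean of at least 5 CPM and none of these reached a 2-fold range. Aldoc, the glial aldolase, was at 4358 ± 329.6 TPM and its relative Aldoa at 1201 ± 34.8 TPM. Lactate dehydrogenase was represented by Ldhb at 1267 ± 67.8 TPM and Ldha at 187 ± 11.8 TPM, without overlap. The brain-type glycogen phosphorylase gene Pygb was at 747 ± 28.0 TPM and the muscle-type gene Pygm at 192 ± 23.3 TPM. The glucose transporter Slc2a1 was the widest of the list, at 379, 416, 575 and 503 CPM and highest in replicate 3. Eno1, alpha-enolase, was listed at 0.163, 0.258, 0.219 and 0.293 CPM. The genome holds a near-identical copy, Eno1b, at 0.325, 0.231, 0.230 and 0.267 CPM, so both values are uncertain, and the part of reads shared by the copies was not tested.

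Aldh7a1, whose alleles are floxed in these mice but not exposed to Cre, was at 222, 207, 213 and 216 CPM in replicates 1 to 4, a mean of 215 ± 6.19 CPM and 172 ± 4.93 TPM (SD, n = 4). It encodes the dehydrogenase that removes an aldehyde of lysine breakdown. The highest sample was 1.07 times the lowest, with an SD of 0.04 on the log2 scale, against a median of 0.12 over all genes with a mean of at least 5 CPM. It was the highest of the 12 genes of lysine catabolism and vitamin B6 handling per length. Upstream in the saccharopine route, Aass was at 26.1 ± 1.27 TPM, and in the pipecolate route Pipox was at 9.15 ± 1.47 TPM and Crym at 21.2 ± 8.54 TPM. Further down, Gcdh, glutaryl-CoA dehydrogenase, was at 58.6 ± 2.02 TPM, while Aadat was listed at 0.326 ± 0.208 TPM. For vitamin B6, the kinase gene Pdxk was at 141 ± 32.5 TPM and the phosphatase gene Pdxp at 40.7 ± 9.42 TPM. Of the 11 genes with a mean of at least 5 CPM, 2 had a 2-fold range, 1 of them Crym, which was lowest in replicate 4 (23.9, 21.4, 15.9 and 7.99 CPM).

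The 26 genes of antioxidant defence all had a mean of at least 5 CPM and none reached a 2-fold range. The metallothionein genes Mt3 (2294 ± 265 TPM) and Mt2 (1610.5 ± 305 TPM) were the highest, followed by the glutathione transferase gene Gstm1 (1434 ± 103 TPM) and by Mt1 (1239 ± 139 TPM). Nfe2l2, which encodes the stress transcription factor NRF2, was at 71.7 ± 2.08 CPM and its inhibitor Keap1 at 65.6 ± 0.943 CPM, with SDs of 0.04 and 0.02 on the log2 scale. Of the inducible targets of NRF2, Nqo1 was the lowest of the list at 26.3 ± 5.23 TPM and Hmox1 was at 33.0 ± 8.19 TPM. Gclc and Gclm, the subunits of the rate-limiting enzyme of glutathione synthesis, were at 77.1 ± 5.49 and 44.0 ± 1.76 TPM. Txn1, thioredoxin, was the widest, at 34.7, 32.1, 54.1 and 35.3 CPM and highest in replicate 3.

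Secreted synapse and matrix proteins were led by Sparcl1, Bcan (brevican, 2642 ± 227 TPM) and Mfge8 (a bridging protein of phagocytosis, 2256 ± 330.3 TPM). The thrombospondin genes, which encode synapse-inducing proteins of young astrocytes, were near the bottom of the list, with Thbs1 at 5.06 ± 4.64 TPM, Thbs2 at 8.79 ± 10.3 TPM and Thbs4 at 7.21 ± 1.29 TPM. Thbs1 was at 3.43, 5.56, 17.3 and 3.17 CPM in replicates 1 to 4 and Thbs2 at 7.42, 5.70, 40.4 and 5.29 CPM, so both stood out in replicate 3. Vcan, versican, was the third gene of the list with a 2-fold range and was low in replicate 3 (40.2, 33.5, 18.5 and 42.5 CPM).

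All 20 transcription factor genes on the list had a mean of at least 5 CPM and none reached a 2-fold range. Sox2 was at 493 ± 88.8 TPM, Sox9 at 213 ± 36.9 TPM, and the nuclear factor I genes Nfia, Nfib and Nfix at 64.7, 52.4 and 226 TPM. The highest was Olig1 at 1362 ± 102 TPM, a gene shared with the oligodendrocyte lineage. Of the genes that mark position in the developing brain, the forebrain gene Lhx2 was at 214, 212, 196 and 252 CPM in replicates 1 to 4, with 467, 463, 406 and 514 CPM for the 8 forebrain genes together, whereas of the 12 genes of diencephalic and hindbrain patterning, En1 had no count in any sample, Hoxa3 did not exceed 0.0271 CPM, and only En2 passed a mean of 5 CPM (6.39, 6.48, 5.27 and 5.87 CPM). Hoxb3 was listed at 0, 0.678, 0.0460 and 0 CPM and Hoxb4 at 0.0677, 0.420, 0.138 and 0.0255 CPM, the highest sample of both being replicate 2.

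Receptor genes spanned a wide range of levels. Gpr37l1 led at 3732 ± 345 TPM, followed by the sphingosine phosphate receptor S1pr1 (2085 ± 275 TPM), Ntsr2 (816 ± 31.3 TPM), Fgfr3 (767 ± 80.9 TPM) and the metabotropic glutamate receptor Grm3 (742 ± 91.7 TPM). Grm5, the receptor of young astrocytes and of neurons, was at 5.07 ± 1.49 TPM, and the adrenergic receptor genes Adra1a, Adra1b and Adra2a were at 15.4, 20.3 and 17.5 TPM. The dopamine receptor gene Drd1 did not pass 0.851 CPM in any sample. Chrm1, a muscarinic receptor mostly of neurons, was the 1 receptor with a 2-fold range and was high in replicate 1 (15.2, 5.78, 9.49 and 5.63 CPM).

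The 26 genes of reactive astrocytes had a median of 11.0 TPM, against 24.2 TPM over the ranked genes, which all had a mean of at least 1 CPM. Of the 26, 22 had such a mean, and the median of the ranked members lay above 40.8% of ranked genes. Of the 26 on that list, 18 had a mean of at least 5 CPM, and the 26 summed to 527, 510.3, 873 and 601 CPM in replicates 1 to 4, highest in replicate 3. Lcn2, lipocalin 2, was listed at 0, 0.108, 0.311 and 0 CPM, Timp1 at 0.122, 0.176, 0.138 and 0.267 CPM and Cxcl10 at 0.379, 0.597, 1.25 and 1.15 CPM, while Serpina3n was at 11.4, 9.14, 23.0 and 8.65 CPM and C3 at 3.05, 2.94, 9.11 and 2.81 CPM. Vim, vimentin, was at 100.4, 113, 255 and 131 CPM, 2.54-fold higher in replicate 3 than in replicate 1. Of the 8 list genes with a 2-fold range, 6 were set apart by a high replicate 3 and 2 by a low replicate 1. Of the 18 genes, 12 were highest in replicate 3, among them Gfap, which is on this list too, against 3492 of all 11937 genes. The genes of motile cilia and of border macrophages were highest in the same sample, and their part in this was not tested.

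Of the other brain cell types, oligodendrocytes had the list with the highest median level. The 12 oligodendrocyte genes had a median of 1409.7 TPM, above the median of the astrocyte list, and summed to 31449, 31998, 28646 and 27558 CPM in replicates 1 to 4. That sum was 54.0% ± 5.89 of the astrocyte sum (SD, n = 4), although sums of lists with different numbers of genes do not give proportions of cells. They included Cnp (3492 ± 238 TPM), Mal (3112 ± 197 TPM), Cldn11 (3066 ± 203 TPM) and Mbp (1546 ± 122 TPM), genes of the myelin sheath, and the lowest was Aspa, aspartoacylase (89.0 ± 6.81 TPM). The astrocyte markers thus meet the label of the samples. Beside them in each one were oligodendrocyte genes, with a higher median level per length and a lower sum. Whether these came from whole cells, myelin fragments or free RNA was not tested. In bulk RNA, fewer cells of a type and less RNA per cell cannot be told apart.

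Between samples the oligodendrocyte genes were about as steady as the astrocyte genes. Their median SD was 0.11 on the log2 scale against 0.14 for the astrocyte list, and none of the 12 reached a 2-fold range. All 12 were higher in replicates 1 and 2 than the median of the other samples, and all 12 lower in replicates 3 and 4. Over all 11937 genes, 50.6%, 50.5%, 48.2% and 50.7% were higher in replicates 1 to 4 than the median of the others. Genes of oligodendrocyte precursors were far lower, with a median of 16.7 TPM. Sox10, which the whole lineage uses, was the highest at 442 ± 62.7 TPM. Pdgfra, the receptor that defines precursors, was at 50.9, 38.9, 11.1 and 59.9 CPM, Cspg4 (NG2, also a gene of pericytes) at 125, 109, 49.2 and 135 CPM, Gpr17 at 42.5, 33.7, 15.1 and 47.6 CPM and Neu4 at 6.43, 4.597, 0.897 and 8.27 CPM. Replicate 3 was the lowest sample for each of these 4. Matn4, the remaining gene with a 2-fold range, went the other way and was highest in replicate 3 (12.98, 10.9, 57.3 and 17.2 CPM).

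**Figure D2:**
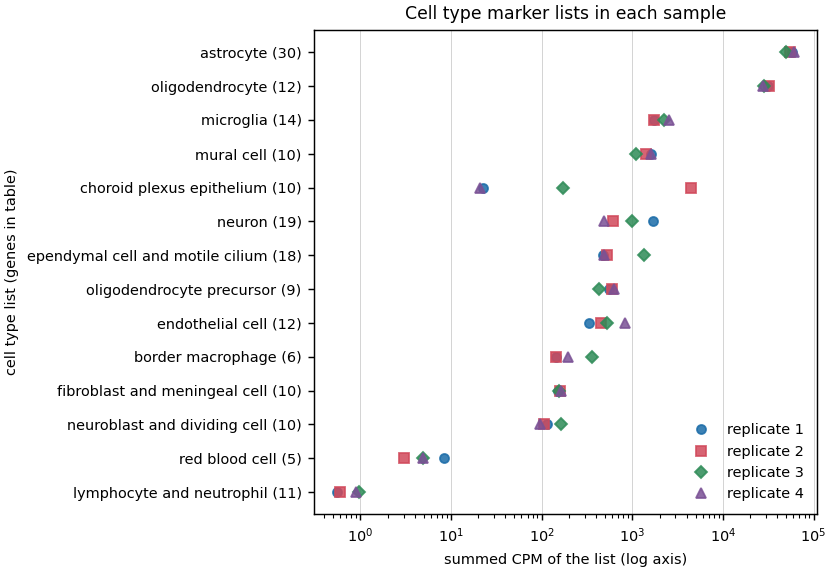
Summed CPM of the 14 cell type lists (y axis, with the number of genes found in the table) in each ConAstro sample (x axis, log scale), 1 symbol per replicate. Astrocyte and oligodendrocyte sums lie at the right with tight symbols, whereas the choroid plexus list runs from 20.9 CPM in replicate 4 to 4455 CPM in replicate 2.

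The 14 microglia genes summed to 1754, 1718, 2236 and 2545 CPM in replicates 1 to 4, with a median of 181 TPM that lay above 93.4% of ranked genes. The complement genes C1qa (698 ± 209.7 TPM) and C1qb (694 ± 201 TPM) were the highest, and Aif1 the lowest (25.4 ± 6.43 TPM). Cx3cr1, the fractalkine receptor, was at 165, 170.5, 169 and 258 CPM, highest in replicate 4. Replicate 4 was the highest sample for 11 of the 14 genes, against 2795 of all 11937 genes. Sall1 was at 123, 135, 109 and 141 CPM. None of the 14 reached a 2-fold range. The genes of macrophages of the brain borders summed to 145, 143, 357 and 196 CPM. All 5 of its genes with a mean of at least 5 CPM (Mrc1, Pf4, Cd163, Lyve1 and F13a1) were highest in replicate 3. Each had a 2-fold range, with Lyve1 the widest at 10.8, 11.5, 37.2 and 11.6 CPM. Over all 11937 genes, 3492 were highest in replicate 3 and 7.72% had a 2-fold range.

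The 12 endothelial genes summed to 337, 447, 522 and 828 CPM in replicates 1 to 4. All 12 were highest in replicate 4, at 1.504 to 2.16 times the median of the other samples. Replicate 4 was the highest sample for 2795 of all 11937 genes. Cldn5, a tight junction gene, was at 31.9, 48.1, 65.9 and 104 CPM and Flt1, a VEGF receptor, at 62.0, 88.5, 89.7 and 166 CPM. The 10 mural cell genes, of pericytes and smooth muscle, summed to 1628, 1420.5, 1100.3 and 1597 CPM. Replicate 3 was the lowest sample for 7 of them, against 4428 of all 11937 genes. Vtn, vitronectin, was at 723, 628, 545 and 699.9 CPM and Pdgfrb at 337, 300.0, 168 and 343 CPM. Per length, Vtn (1331 ± 159 TPM) was the highest of the list, followed by Pdgfrb (218 ± 61.4 TPM). Fibroblast and meningeal genes, with a median of 7.87 TPM, summed to 153, 161, 158 and 165 CPM, the narrowest range of the cell type lists (1.08-fold).

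The 19 neuronal genes summed to 1692, 621, 985 and 489 CPM in replicates 1 to 4, or 1.71% ± 0.943 of the astrocyte sum (SD, n = 4), and their median was 14.8 TPM. Replicate 1 was the highest for all 13 genes with a mean of at least 5 CPM, and replicate 4 the lowest for all 13. A 2-fold range was seen in 11 of the 13. Over all 11937 genes, replicate 1 was the highest for 2845 and replicate 4 the lowest for 2599, and 7.72% had a 2-fold range. Camk2a, a kinase whose mRNA is carried into dendrites, was at 667, 144, 272 and 90.5 CPM. The vesicular glutamate transporter Slc17a7 was at 147, 56.1, 96.1 and 44.4 CPM and the synaptic protein gene Snap25 at 188, 83.8, 120.4 and 65.6 CPM. Of the genes of inhibitory neurons, Gad1 was at 16.4, 6.96, 15.6 and 6.86 CPM and Sst at 4.99, 1.79, 2.92 and 0.560 CPM. The lowest per length was Vip (1.24 ± 0.838 TPM). Genes of neuroblasts and dividing cells summed to 114, 105, 163 and 97.1 CPM, with Mki67, a gene of cycling cells, at 11.1, 10.7, 10.03 and 7.98 CPM.

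The globin genes Hba-a1, Hba-a2, Hbb-bs and Hbb-bt were listed at 0 in all 4 samples, which allows up to 0.0345 to 0.0407 CPM at 3 counts a sample. They come in near-identical pairs, so the 0 is uncertain, and how shared reads were counted was not tested. The erythroid gene Alas2 was at 8.45, 3.06, 4.90 and 4.95 CPM. The 11 genes of lymphocytes and neutrophils in the table summed to 0.555, 0.597, 0.966 and 0.904 CPM, and none of the 11 reached a mean of 1 CPM.

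**Figure D3:**
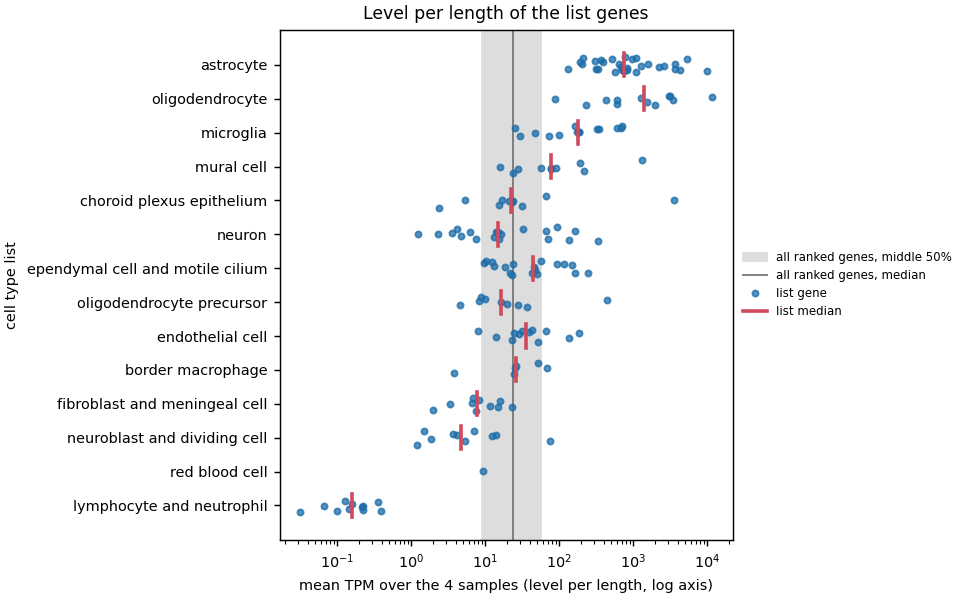
Mean TPM over the 4 ConAstro samples (x axis, log scale) of every gene on the 14 cell type lists, with 1 point per gene and a bar at the list median. The band and the line give the middle 50% and the median of all 14096 ranked genes, and genes at 0 are left out. The astrocyte and oligodendrocyte medians (755 and 1409.7 TPM) lie far to the right of the line at 24.2 TPM.

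Between samples, most genes were steady. The median SD of log2 CPM was 0.12 over the 11937 genes with a mean of at least 5 CPM, 90 percent of genes had an SD below 0.38, and edgeR's common biological coefficient of variation was 19.4%. Among the genes with a mean of at least 50 CPM, those with the lowest SD included several of protein and membrane traffic. Selk, selenoprotein K of the endoplasmic reticulum, was at 127, 126, 126 and 126 CPM in replicates 1 to 4, Psmc1, a proteasome subunit, at 96.8, 96.9, 96.3 and 96.7 CPM, and Prkar1a, a regulatory subunit of protein kinase A, at 425, 430.1, 429 and 430.4 CPM. The others among the first 10 were Stx12, Pex19, Tmed10, 1110004F10Rik, Ctdnep1, Rab1 and Cd99l2. These genes were ranked on their SD, so the values describe them and test nothing.

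A 2-fold range between the lowest and the highest sample was seen in 921 genes (7.72%). Without replicate 3 the count was 384. Replicate 3 set the largest part of them apart. It was the farthest above the median in 479 genes and the farthest below in 43. Replicate 1 was farthest above in 197 and below in 44, replicate 2 in 58 and 3, and replicate 4 in 52 and 45. A 10-fold range was rarer, in 35 genes, of which replicate 2 was the high sample in 22 and replicate 3 in 13. Of the 30 genes with the highest SD, 19 were high in replicate 2 and 11 in replicate 3. Both tallies favour high samples by construction. A gene near 0 elsewhere passes the minimum mean of 5 CPM only through its high sample, as did Foxd3 (0.190 CPM without replicate 3).

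**Figure D4:**
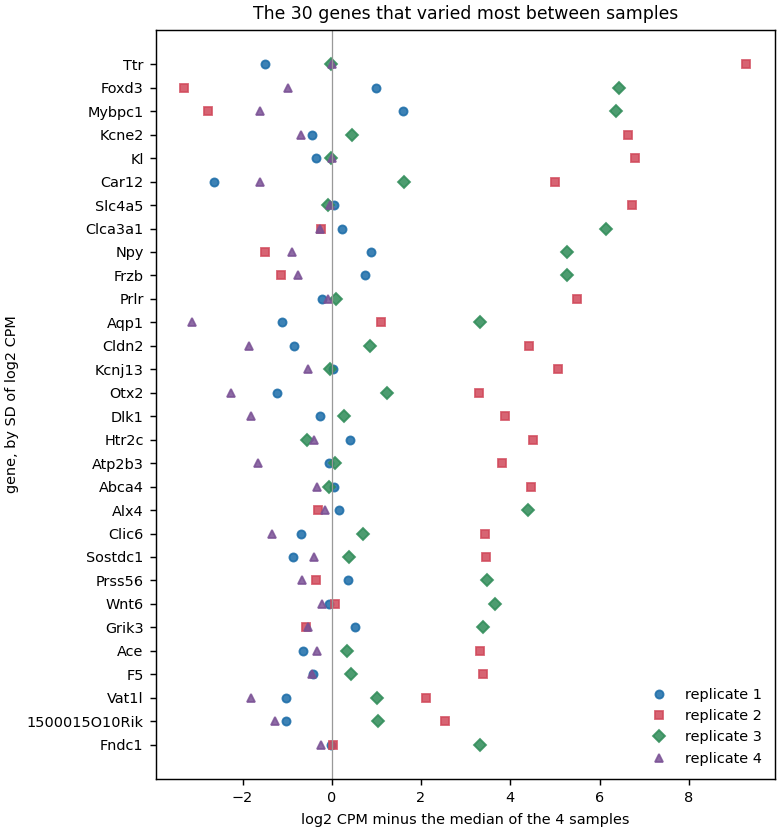
The 30 genes with the highest SD of log2 CPM (y axis, highest at the top), each sample plotted as its log2 CPM minus the median of the 4 samples (x axis). Replicate 2 is the right-hand symbol in 19 rows and replicate 3 in 11, while replicates 1 and 4 never are.

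The genes with the highest SD included those of the choroid plexus epithelium, the tissue of the ventricles that secretes cerebrospinal fluid. Ttr, its main secreted product, was at 2.25, 4027, 6.37 and 6.45 CPM in replicates 1 to 4, an SD of 4.95 on the log2 scale. Kl, the hormone co-receptor Klotho, was at 0.921, 135, 1.17 and 1.196 CPM, and the channel genes Kcne2 and Kcnj13 were at 0.230, 34.6, 0.449 and 0.191 CPM and 0.555, 19.0, 0.529 and 0.369 CPM. For each of these 4 genes the other samples lay close to each other and far below replicate 2. All 10 genes of the choroid plexus list had a 2-fold range and all 10 were higher in replicate 2 than the median of the other samples, by 4.68 to 632 times. Without replicate 2, the means of Kl, Kcne2 and Kcnj13 were 1.10, 0.291 and 0.487 CPM. They passed the minimum mean of 5 CPM only through that sample. For such members of the list, the 2-fold range and the high replicate 2 follow from that minimum. Replicate 3 held the second highest sum of that list, 171 CPM against 22.6 and 20.9 CPM in replicates 1 and 4. Aqp1 alone made up 75.7% of the sum in replicate 3, which was 41.5 CPM without it.

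Of the 19 variable genes high in replicate 2, 8 were on the choroid plexus list. The other 11 were Car12, Slc4a5, Cldn2, Dlk1, Htr2c, Atp2b3, Abca4, Ace, F5, Vat1l and 1500015O10Rik, among which the bicarbonate transporter Slc4a5 (0.406, 44.5, 0.368 and 0.382 CPM), the serotonin receptor Htr2c (2.70, 47.0, 1.37 and 1.53 CPM) and the angiotensin-converting enzyme Ace (4.71, 74.0, 9.29 and 5.80 CPM) are also known from this epithelium. Aqp1, a water channel and the 9th list gene among the 30, differed from the rest. It was at 6.00, 28.1, 129 and 1.46 CPM, so that replicate 3 was above replicate 2. Genes of the astrocyte list in replicate 2 had a median of 0.947 times the median of the other samples.

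Of the genes high in replicate 3, those with the highest SD were Foxd3, a transcription factor of the neural crest (0.474, 0, 21.7 and 0.102 CPM), Mybpc1, a myosin binding protein (1.63, 0.0542, 44.6 and 0.153 CPM), and Clca3a1 (0.461, 0.325, 29.2 and 0.318 CPM). Npy, neuropeptide Y, was at 6.42, 1.22, 134 and 1.87 CPM, Frzb, a secreted WNT antagonist, at 7.00, 1.88, 160.3 and 2.47 CPM, and Prss56, a serine protease, at 6.43, 3.88, 56.0 and 3.12 CPM. In each of these 6 genes replicate 1 was the next sample, far below replicate 3. Alx4 (35.1 CPM in replicate 3), Wnt6 (16.4 CPM), Grik3 (60.0 CPM) and Fndc1 (33.5 CPM) were also highest in replicate 3, with no other sample above 8.25 CPM for any of them. Frzb, Npy, Prss56 and Fabp7 are known from ensheathing glia of the olfactory nerve, for which no list was written, and whether such cells were present was not tested. Fkbp5 and Zbtb16, which are induced by glucocorticoids and were picked after their values were seen, were also highest there. Fkbp5 was at 26.1, 12.9, 109.7 and 10.3 CPM and Zbtb16 at 15.2, 15.3, 82.8 and 11.6 CPM.

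The beating cilia of ependymal cells, which line the ventricles, are built from dynein arms and radial spokes under the control of the transcription factors FOXJ1 and RFX. All 18 genes of the ependymal and motile cilium list had a 2-fold range, and all 18 were highest in replicate 3, at 2.10 to 3.52 times the median of the other samples, with a median of 2.77. Over all genes with a mean of at least 5 CPM, 48.2% were higher in replicate 3 than the median of the others. Foxj1 was at 98.0, 121, 296 and 103 CPM in replicates 1 to 4. Ccdc153, a coiled-coil protein gene of cilia, was at 50.4, 52.2, 164 and 48.9 CPM, the axonemal dynein heavy chain genes Dnah5 and Dnah6 at 33.7, 31.5, 89.2 and 31.7 CPM and 50.1, 52.5, 127 and 49.6 CPM, the radial spoke head gene Rsph1 at 25.5, 28.4, 74.6 and 25.7 CPM and Hydin, a gene of the central pair, at 32.0, 34.2, 82.7 and 30.7 CPM. Replicates 1, 2 and 4 were close to each other for each of these, with list sums of 475, 529 and 487 CPM against 1354 CPM in replicate 3.

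The RFX half-site was looked for in the promoters of these 18 genes. Promoters were read from RefSeq (GRCm38.p6) as the 250 bases before and the 50 after each start. The letters were GTTGCC on either strand (GGCAAC on the other), and windows were found for 15 of the 18 genes. Of the 15 genes, 6 (40.0%) held the letters in a window, against 14.1% of all 27025 genes with a window and 15.7% of those with a mean of at least 5 CPM. The list was written for cilium genes, which RFX controls, so this share describes the list and says nothing about replicate 3. A match is a description of letters, not of binding. The windows of Ccdc153 and Dynlrb2, a dynein light chain gene at 8.48, 9.05, 24.1 and 8.44 CPM, are shown as examples of a match, both on the plus strand and with the match in capitals. Ccdc153 is chr9:44240427-44240726, with the match at -152 from the start, and Dynlrb2 is chr8:116504765-116505064, with the match at -51.
Ccdc153: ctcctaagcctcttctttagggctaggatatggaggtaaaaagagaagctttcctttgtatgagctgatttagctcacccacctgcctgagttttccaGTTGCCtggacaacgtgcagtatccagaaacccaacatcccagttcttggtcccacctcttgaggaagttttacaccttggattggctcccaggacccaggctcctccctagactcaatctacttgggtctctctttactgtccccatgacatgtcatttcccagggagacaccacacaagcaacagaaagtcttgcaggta
Dynlrb2: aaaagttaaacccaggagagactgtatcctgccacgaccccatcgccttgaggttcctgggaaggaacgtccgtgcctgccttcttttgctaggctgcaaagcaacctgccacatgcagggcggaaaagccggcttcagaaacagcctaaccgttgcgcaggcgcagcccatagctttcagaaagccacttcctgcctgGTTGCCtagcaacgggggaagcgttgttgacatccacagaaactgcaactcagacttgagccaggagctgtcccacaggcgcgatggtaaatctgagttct
Each of these windows holds the letters once, upstream of the start.

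Replicate 1 was the farthest sample above the median in neuronal genes and in ribosomal RNA. Of its 197 genes, Camk2a had the highest SD, followed by Lars2, a mitochondrial leucyl-tRNA synthetase gene, at 666, 110.0, 136 and 152 CPM, and Mir6236, a short annotated locus counted here on poly(A) RNA, at 384, 62.0, 85.4 and 84.9 CPM. Kif5a, a kinesin of neurons, was at 1067, 258, 380.2 and 187 CPM. Rn45s, Lars2 and Mir6236 had 1 high sample each. All 13 neuronal genes were also higher in replicate 3 than the median of the others, against 48.2% of all 11937 genes. Their pattern was thus not that of Rn45s, Lars2 and Mir6236. Among genes lowest in replicate 1 were those of antigen presentation by class II molecules, with Cd74, the invariant chain, at 20.7, 39.0, 78.5 and 75.6 CPM and H2-Ab1 at 9.23, 16.4, 46.3 and 35.3 CPM. The 21 genes of interferon response and antigen presentation, to which both belong, summed to 406, 484, 671 and 719.9 CPM in replicates 1 to 4. Class II genes are mainly used by microglia and macrophages in the brain. The microglia list was also lower in replicates 1 and 2 than in 3 and 4. Its lowest sum was in replicate 2, at 1718 CPM against 1754 CPM in replicate 1. The part of these cells in the class II values was not tested.

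Heat shock and immediate early genes respond to tissue dissociation as well as to physiology. The 13 heat shock genes summed to 2819.7, 3961, 4192 and 3371 CPM in replicates 1 to 4. Replicate 1 was the lowest sample for 10 of the 13, against 2676 of all 11937 genes. Hspa1b, the inducible HSP70, was at 22.3, 67.4, 60.4 and 34.02 CPM and Hsph1 at 101, 145, 211 and 96.0 CPM. The 22 immediate early genes summed to 1596, 1646, 2199 and 2054 CPM, with Fos at 197, 205, 337 and 279 CPM and Jun at 214, 229.8, 323 and 335 CPM, both higher in replicates 3 and 4. Egr4, mostly a gene of neurons, went the other way at 11.2, 4.71, 5.03 and 2.95 CPM and was highest in replicate 1. Of the clock genes, Arntl was at 33.6, 42.5, 46.1 and 46.7 CPM and Dbp, which peaks at the opposite phase, at 105, 66.3, 51.5 and 67.9 CPM. Replicate 1 had the highest Dbp and the lowest Arntl.

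**Figure D5:**
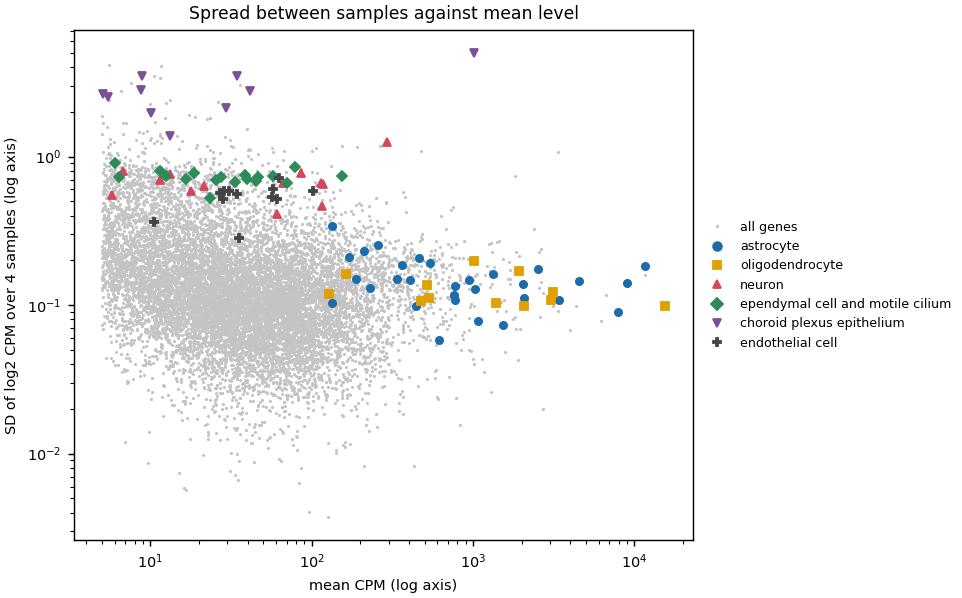
SD of log2 CPM over the 4 ConAstro samples (y axis, log scale) against mean CPM (x axis, log scale) for the 11937 genes with a mean of at least 5 CPM, with 6 cell type lists marked. Astrocyte and oligodendrocyte genes lie low (medians 0.14 and 0.11), neuron, endothelial and cilium genes lie higher (0.66, 0.56 and 0.73), and choroid plexus genes at the top (2.71).

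The lists of less abundant cell types had larger SDs than the astrocyte and oligodendrocyte lists. Medians were 0.31 for microglia, 0.31 for mural cells, 0.56 for endothelial cells, 0.66 for neurons, 0.71 for oligodendrocyte precursors and 0.73 for cilium genes. Neuroblast and dividing cell genes were at 0.25 and fibroblast and meningeal genes at 0.17, though both lists had lower sums than microglia. In replicate 4 the genes farthest above the median, 52 of the 921, were led by Flt4 (2.56, 4.24, 5.20 and 9.07 CPM), Hspa12b (6.75, 10.9, 14.0 and 22.8 CPM) and Cldn5. Of these, Cldn5 is on the endothelial list. Replicate 1 was thus the high sample for neuronal genes, replicate 2 for choroid plexus genes, replicate 3 for cilium and border macrophage genes, and replicate 4 for endothelial and microglia genes. The part of the dissection, the dissociation or the mice in these differences was not tested.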

How the data were processed

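RNA was sequenced from ACSA-2-positive cortical cells, 1 library per mouse, after poly(A) selection and paired-end NovaSeq sequencing. The authors deposited raw read counts per gene symbol, made with FastQC and STAR GeneCounts on mm10 according to their methods and processing notes. Versions, the gene annotation and the strand column are not given in the sources used here, so overlapping genes, antisense genes and near-identical copies are uncertain.

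The 4 ConAstro samples on the control diet, taken by label, were scaled with TMM in edgeR 4.0.16 (R 4.3.3, limma 3.58.1). CPM is the count per 1000000 counted reads. TPM divides counts by the union exon length of GENCODE M21 on GRCm38, which was found for 23379 symbols directly and 651 through RefSeq synonyms. Log2 CPM used a prior count of 2. Tables were made with pandas 2.3.3, numpy 2.4.6 and scipy 1.17.1 and plots with matplotlib 3.10.9. Scripts were tested on simulated data.

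No groups were compared and no test was run. Depth was 74771451 to 84049525 counts a sample, and limits set by 3 counts speak of counting error alone. The n of 4 measures the spread between 4 mice.

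Genes were named by rule: the 30 with the highest mean CPM, the 20 with the highest mean TPM (mean of at least 1 CPM, at least 200 exon bases), the 30 with the highest SD of log2 CPM (mean of at least 5 CPM), the 10 with the lowest SD (mean of at least 50 CPM), and members of 31 lists. Members and lists were chosen with earlier results of these data known. Of 459 listed genes, 458 are in the table and 25 are on more than 1 list. Lars2, Mir6236, Kif5a, Fkbp5, Zbtb16, Flt4, Hspa12b and Eno1b were picked after their values were seen. Alternatives were other size factors, other minimum levels, transcript length in place of exon length, counts thinned to the smallest total, and leaving out each replicate. Some genes that the rule names are not reported here.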

Additional observations from a re-analysis of the deposited data

Results flagged for a closer look

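A sample was set aside for a closer look where its gap to the nearest of the other 3 took up most of the range of the 4, by Dixon's 95% criterion, which chance meets in about 1 in 20 groups. Of the 31 lists examined, 2 had such a sample, and so did 49 of the 204 genes named in the report. Many of those genes were named for their high SD, so that share is not a finding, and over all genes with a mean of at least 5 CPM it was 8.70% (1039 of 11937). Replicate 3 was the high sample in 490 of these 1039 genes.

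The motile cilium list summed to 1354 CPM in replicate 3 against 475 to 529 CPM in the others, and its genes named in the report were Foxj1 (296 CPM), Ccdc153 (164 CPM), Dnah5 (89.2 CPM), Dnah6 (127 CPM), Rsph1 (74.6 CPM), Hydin (82.7 CPM) and Dynlrb2 (24.1 CPM) in that sample. The choroid plexus list summed to 4455 CPM in replicate 2 against 20.9 to 171 CPM in the others. Its genes were Ttr (4027 CPM), Kl (135 CPM), Kcne2 (34.6 CPM) and Kcnj13 (19.0 CPM) in replicate 2.

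The further genes with a high replicate 2 were Hoxb3 (0.678 CPM), Car12 (37.8 CPM), Slc4a5 (44.5 CPM), Cldn2 (23.6 CPM), Dlk1 (19.3 CPM), Htr2c (47.0 CPM), Atp2b3 (90.8 CPM), Abca4 (44.7 CPM), Ace (74.0 CPM) and F5 (38.6 CPM). Those with a low replicate 2 were limited to Mlc1 (987 CPM).

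On the other lists, a high replicate 3 was seen for Fabp7 (473 CPM), Txn1 (54.1 CPM), Thbs1 (17.3 CPM), Thbs2 (40.4 CPM), C3 (9.11 CPM), Matn4 (57.3 CPM), Cd163 (61.8 CPM) and Lyve1 (37.2 CPM). Among the genes with a high SD, and 2 picked after their values were seen, it was seen for Foxd3 (21.7 CPM), Mybpc1 (44.6 CPM), Clca3a1 (29.2 CPM), Npy (134 CPM), Frzb (160.3 CPM), Prss56 (56.0 CPM), Alx4 (35.1 CPM), Wnt6 (16.4 CPM), Grik3 (60.0 CPM), Fndc1 (33.5 CPM), Fkbp5 (109.7 CPM) and Zbtb16 (82.8 CPM). A low replicate 3 was seen for Gnao1 (1530.2 CPM) and Slc7a11 (308 CPM).

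In replicate 1 the high genes were Rn45s (7897 CPM), Lars2 (666 CPM) and Mir6236 (384 CPM), and in replicate 4 they were Sox9 (266 CPM) and Cx3cr1 (258 CPM).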

How the results depend on the processing

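No gene named in the report and above 0 changed its mean CPM by over 1.5 times with other size factors, and none did without replicate 4, but 5 of 199 did without replicate 1, 19 without replicate 2 and 23 without replicate 3. Examples are Rn45s (1876 CPM without replicate 1), Camk2a (169.6 CPM without replicate 1), Ttr (5.05 CPM without replicate 2), Kl (1.10 CPM without replicate 2), Fabp7 (96.2 CPM without replicate 3) and Foxd3 (0.190 CPM without replicate 3). The 921 genes with a 2-fold range became 1692 at a minimum mean of 1 CPM and 6314 with no minimum beyond 1 count, and 384 to 864 when each replicate was left out, where 384 was without replicate 3 and where 3 samples also have a smaller range by construction. The median SD of log2 CPM, 0.119, was 0.118 with library totals, 0.120 with DESeq2 size factors, 0.119 with thinned counts, and 0.0862 to 0.122 with a replicate left out, lowest without replicate 3. With the longest transcript in place of the union of exons, the median level was 684 TPM for astrocyte, 1526 TPM for oligodendrocyte, 140 TPM for microglia and 62.1 TPM for mural genes, against 755, 1410, 181 and 78.4 TPM. Without replicate 2 the mean choroid plexus sum was 71.7 CPM in place of 1167 CPM. Recomputed values of lists and totals were called unchanged in 117 cases and moved in 14, and those of single genes in 1206 and 19. Unchanged meant within 1.5 times for counts of genes and within the SD between replicates for other values. The median SD of log2 CPM was called moved at any change. A high replicate itself widens the SD between replicates, so the choroid plexus sums without replicate 2 and without Ttr are among the 117. Leaving out Rn45s, Ttr or Camk2a was chosen after seeing the data: without Ttr the choroid plexus sum was 157 CPM, and without Camk2a the neuron sum was 654 CPM. Genes of the mitochondrial genome could not be left out, as the table lists none. No paired analysis was possible because a single group was described and no test was run. Depth limits only genes near the floor of 0.0345 to 0.0407 CPM.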
